A study of Cavia porcellus with 11 samples.

Results

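Macrophage genes were described in RNA-seq libraries of guinea pig (Cavia porcellus) cochlea, as a module of 33 genes named by symbol. The module joins genes used as markers of macrophages in general, the complement chains these cells make, and genes of resident macrophages along blood vessels. Of the 33 symbols, 29 were found among the 21481 genes of the deposited table, and 27 of these 29 had enough reads to be among the 15384 genes tested. Itgb2, Cybb, Timd4 and Folr2 had no row under their symbol and are not among the 29. The groups were cochleae of animals given cisplatin plus STB (3 libraries), cochleae after cisplatin (4 libraries) and control cochleae without treatment (4 libraries). Cisplatin is a platinum drug against tumours that damages hearing, and the labels write STB where the title of the series speaks of Schisantherin B, a plant lignan. The labels give no dose, route, time, age, sex or strain, and no library received STB alone. They also do not say whether each library came from its own animal, so a p-value here reflects how far these libraries scatter, part of which may be technical.

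Macrophages of the inner ear sit along the vessels of the stria vascularis, among the fibrocytes of the lateral wall and around the spiral ganglion, and they clear dead cells after damage to the sensory epithelium, as known mainly from mice. Their survival depends on the receptor CSF1R, which binds the ligands CSF1 and IL34. They also supply C1q, the first component of the classical complement pathway, whose chains C1QA, C1QB and C1QC assemble into a single molecule that tags debris for uptake. Perivascular macrophages carry scavenger and lectin receptors such as MRC1, LYVE1 and STAB1.

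Libraries held 15183801 to 17967896 counts after cisplatin plus STB, 15987935 to 17250430 after cisplatin and 14338894 to 18508296 in control cochleae. Of 20 cochlear genes such as Coch and Otog, 19 were tested, and Atoh1, a hair cell transcription factor of development, was at 0 in every library. The summed level of the 29 macrophage genes was 384 to 690 CPM (counts scaled to library size) after cisplatin plus STB, 350 to 615 CPM after cisplatin and 503 to 640 CPM in control cochleae. The sum leans on a few members, since Cd74 averaged 192 CPM, Gas6 60.6 CPM and Mertk 58.1 CPM in control cochleae. All but a pair of the 29 genes averaged at least 1 CPM. The exceptions were Adgre1, the gene of the F4/80 antigen, with 0 to 6 counts per library, and Mpeg1, which encodes a pore-forming protein of macrophages, with 0 to 2 counts. In such bulk libraries fewer macrophages and less RNA per macrophage cannot be told apart.

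Per length, on the FPKM scale of the authors, macrophage genes of control cochleae covered a wide range of levels. Cd74, the invariant chain of MHC class II, stood highest with 124 ± 26.99 FPKM (SD, n = 4), and its control libraries did not overlap those of the next gene. Tyrobp, a signalling adaptor, followed with 27.2 FPKM, then Gas6, a bridging ligand between dying cells and phagocytes, with 24.8 FPKM, and C1qa with 15.4 FPKM. Laptm5, a lysosomal protein of blood cells, had 12.7 FPKM, the efferocytosis receptor gene Mertk 10.8 FPKM and C1qb 9.25 FPKM. Csf1r lay in the middle of the order with 6.82 FPKM, above C1qc with 5.08 FPKM. The pan-leukocyte phosphatase gene Ptprc had 1.04 FPKM, the lipid receptor gene Trem2 0.813 FPKM and the sialic acid receptor gene Siglec1 0.613 FPKM. Apart from the step below Cd74 and the step from Siglec1 to Adgre1, neighbours in this order had control libraries that overlapped, so their order is not resolved beyond the spread.

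**Figure D1:**
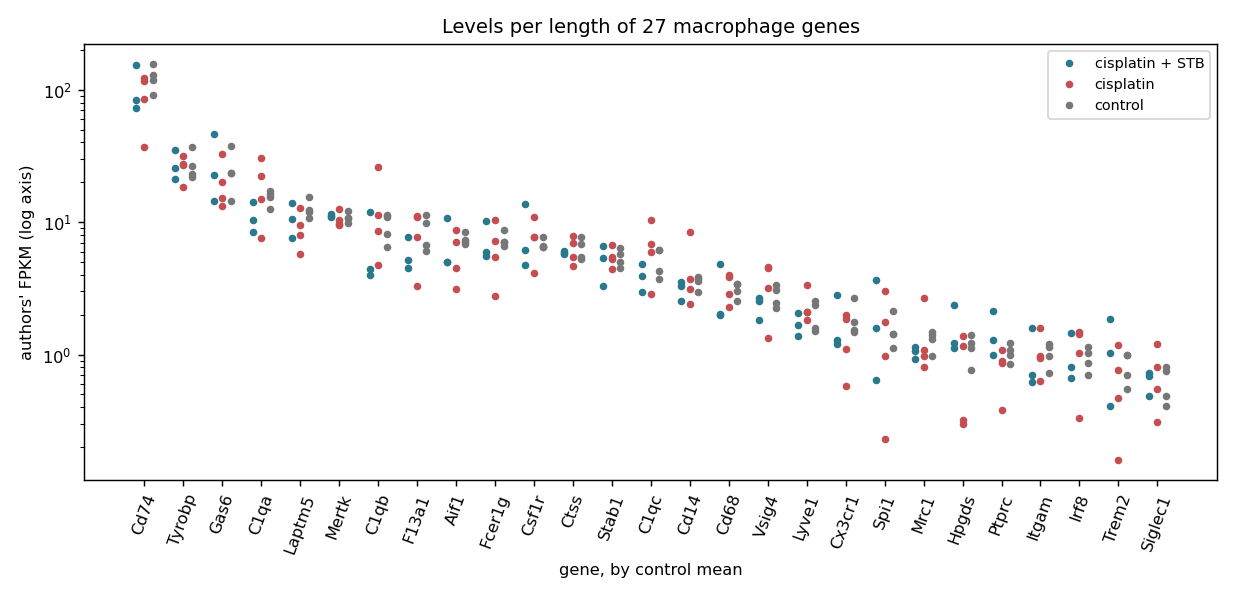
Levels per length (authors' FPKM, log axis) of the 27 tested macrophage genes, ordered by their control mean; each point is 1 library, with cisplatin plus STB left, cisplatin in the middle and control right of each gene. Cd74 stands apart at the top with a control mean of 124 FPKM, and the treated libraries spread more widely than the control libraries for genes such as Spi1 and Trem2.

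The chains of C1q are encoded side by side. On a single plus-strand stretch, C1qa spans positions 17014445 to 17017367, C1qc 17019863 to 17023638 and C1qb 17026744 to 17031677, positions that match RefSeq's table for assembly mCavPor4.1. Csf1r (17035129 to 17062809) and Cd74 (17354371 to 17363756) lie on another sequence of the assembly, on the minus strand, together with Cd14 (7931671 to 7933228). Aif1 overlaps Ncr3, Stab1 overlaps Nt5dc2 and Gas6 overlaps Tmem255b on the opposite strand. Whether reads were counted by strand was not given, so the levels of these members may hold reads of their neighbours.

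Single libraries stood apart over much of the module. Cisplatin library 4 had the lowest level of all 11 libraries for 18 of 27 macrophage genes (66.7%), against 16% of all genes tested, and lay below every control library for 21 of 27 (77.8%), against 30.6% of all genes. Cisplatin plus STB library 3 lay below every control library for 19 of 27 (70.4%, against 25.2% of all genes), and cisplatin plus STB library 1 for 11 of 27 (40.7%, against 16.9% of all genes). In the other direction, cisplatin plus STB library 2 and cisplatin library 2 were each the highest of all 11 libraries for 8 genes (29.6%), against 9.99% of all genes in that cisplatin plus STB library and 18.8% in that cisplatin library. As a median over the 27 genes, the log2 difference to the control mean was -0.14, 0.33 and -0.48 in the libraries after cisplatin plus STB, 0.08, 0.13, 0.20 and -0.80 in those after cisplatin, and between -0.12 and 0.15 in control libraries. The treated libraries therefore spread to both sides of a narrow control group, and libraries of the same treatment lay on opposite sides. The low level of cisplatin library 4 was shared by other lists. Its median log2 difference was -1.09 over 5 neutrophil genes, -0.72 over 36 further macrophage genes and -0.62 over 15 endothelial genes, but -0.16 over 10 osteoclast genes and 0.09 over the 19 cochlear genes. Their part in the macrophage result was not tested.

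**Figure D2:**
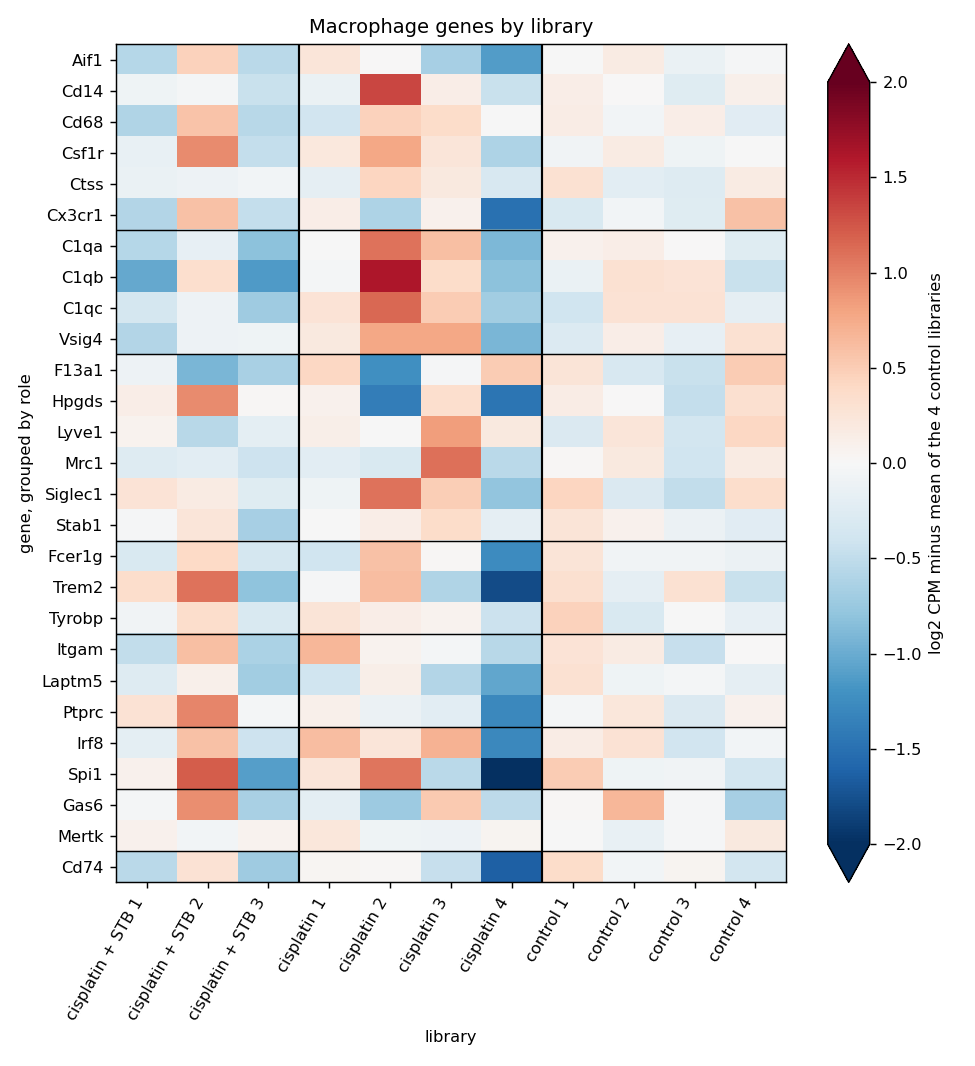
Difference of log2 CPM (prior count 2) between each library (columns) and the mean of the 4 control libraries for 27 macrophage genes (rows, grouped by role and separated by lines); red is higher and blue lower than the control mean. Cisplatin library 4 is blue for most genes, cisplatin library 2 is deep red for C1qa, C1qb, C1qc and Cd14, and Spi1 in cisplatin library 4 lies beyond the colour scale at -2.25.

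Cisplatin against control asks whether macrophage genes moved with the drug alone. None of the 27 tested members passed an adjusted p of 0.05 in edgeR's quasi-likelihood test with Benjamini-Hochberg adjustment over all 15384 genes, where 0% of all genes passed in either direction. At an unadjusted p under 0.05, 0 members were found, against 4.43% of all genes higher and 5.28% lower, and DESeq2 also called 0 members. The members split into 18 positive and 9 negative fold changes with a median log2 fold change of 0.04, beside -0.0056 over all genes. No member had libraries that did not overlap between cisplatin and control, against 2.80% of all genes higher and 3.26% lower after cisplatin.

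The C1q chains had positive values in this comparison. C1qa had 20.04, 42.9, 30.9 and 10.8 CPM after cisplatin, against 21.5, 22.2, 20.4 and 17.2 CPM in control cochleae. C1qb had 9.49, 30.3, 12.7 and 5.49 CPM after cisplatin, against 8.88, 12.2, 11.8 and 7.21 CPM in control cochleae. C1qc had 10.2, 18.8, 12.1 and 5.18 CPM after cisplatin, against 6.33, 10.3, 10.3 and 7.49 CPM in control cochleae. For each chain, cisplatin libraries 2 and 3 were above all control libraries and cisplatin library 4 was below all of them, so the groups overlapped. The fitted log2 fold changes were 0.36 ± 0.33 (SE) for C1qa (adjusted p = 0.722, edgeR), 0.53 ± 0.49 for C1qb (adjusted p = 0.730, edgeR) and 0.43 ± 0.33 for C1qc (adjusted p = 0.681, edgeR). Without cisplatin library 4 they were 0.63, 0.81 and 0.67, and C1qa, C1qc and the complement receptor gene Vsig4 then had an unadjusted p under 0.05 in edgeR, as 3.73% of all genes did on the higher side. Without cisplatin library 2 they were 0.02, -0.11 and 0.10.

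Cd14, the co-receptor for bacterial lipopolysaccharide, was highest in the same library as the C1q chains. Its level was 4.62, 13.1, 5.64 and 3.72 CPM after cisplatin, against 5.58, 5.12, 4.29 and 5.52 CPM in control cochleae. Cisplatin library 2 was far above the rest and the other libraries of both groups overlapped. The log2 fold change of Cd14 was 0.40 ± 0.35 (SE, adjusted p = 0.713, edgeR), and -0.13 without cisplatin library 2.

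The smallest p of the module in this comparison belonged to Laptm5, which targets receptors of immune cells for lysosomal breakdown. Laptm5 had 19.8, 28.1, 17.3 and 12.6 CPM after cisplatin, against 32.2, 24.5, 25.2 and 23.0 CPM in control cochleae. Cisplatin libraries 1, 3 and 4 were below all control libraries and cisplatin library 2 was among them. The log2 fold change was -0.43 ± 0.24 (SE, adjusted p = 0.569, edgeR).

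Cd74 had 193, 192, 136 and 61.0 CPM after cisplatin, against 244, 181, 197 and 146 CPM in control cochleae, with cisplatin libraries 3 and 4 below all control libraries. Its log2 fold change was -0.40 ± 0.34 (SE, adjusted p = 0.709, edgeR), and -0.14 without cisplatin library 4. Cx3cr1, the fractalkine receptor of monocytes and microglia, averaged 4.50 CPM after cisplatin and 5.90 CPM in control cochleae, a log2 fold change of -0.39 ± 0.40 (SE, adjusted p = 0.744, edgeR). Lyve1, a hyaluronan receptor of perivascular macrophages and lymphatic vessels, averaged 6.40 CPM after cisplatin and 5.23 CPM in control cochleae, a log2 fold change of 0.29 ± 0.28 (SE, adjusted p = 0.733, edgeR). These averages differed by less than the spread between libraries.

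Csf1r, the receptor that macrophages need to survive, had 29.9, 44.2, 30.7 and 16.8 CPM after cisplatin, against 24.6, 29.2, 24.4 and 25.7 CPM in control cochleae. Cisplatin libraries 1, 2 and 3 were above all control libraries and cisplatin library 4 below all of them. The log2 fold change of Csf1r was 0.23 ± 0.32 (SE, adjusted p = 0.815, edgeR), that of Ptprc -0.31 ± 0.32 (SE, adjusted p = 0.747, edgeR) and that of the mannose receptor gene Mrc1 0.15 ± 0.34 (SE, adjusted p = 0.886, edgeR). The value of Mrc1 rested on cisplatin library 3, without which it was -0.37.

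Cisplatin plus STB against cisplatin asks whether the combined treatment changed what cisplatin alone had left. Again none of the 27 members passed the adjusted p of 0.05 in edgeR, where 0.0065% of all genes were called higher and 0.013% lower, and DESeq2 also called 0 members. At an unadjusted p under 0.05 the members were Ptprc on the higher side, against 4.45% of all genes, and C1qa and C1qc on the lower side, against 4.58% of all genes. The members split into 12 positive and 15 negative fold changes, with a median log2 fold change of -0.16 beside 0.0046 over all genes. No member had libraries that did not overlap, against 3.81% of all genes higher and 3.73% lower. This comparison shares its cisplatin libraries with the previous one, so a value that is high in cisplatin libraries 2 and 3 raises the first fold change and lowers this one.

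All 4 members of the complement group had negative values here. C1qa had 13.6, 18.0 and 11.4 CPM after cisplatin plus STB, against 20.04, 42.9, 30.9 and 10.8 CPM after cisplatin. All libraries with STB were below cisplatin libraries 1, 2 and 3, and cisplatin library 4 was below all of them. The log2 fold change of C1qa was -0.87 ± 0.36 (SE, 95% interval -1.66 to -0.08, adjusted p = 0.518, edgeR). C1qc had 6.59, 7.87 and 5.12 CPM after cisplatin plus STB, against 10.2, 18.8, 12.1 and 5.18 CPM after cisplatin, and a log2 fold change of -0.83 ± 0.36 (SE, adjusted p = 0.533, edgeR). C1qb had 4.78, 12.4 and 4.40 CPM after cisplatin plus STB, against 9.49, 30.3, 12.7 and 5.49 CPM after cisplatin, and a log2 fold change of -1.003 ± 0.54 (SE, adjusted p = 0.634, edgeR). For C1qc all libraries with STB were below cisplatin libraries 1, 2 and 3, while for C1qb cisplatin plus STB library 2 was above cisplatin library 1. Cisplatin library 4 lay among the libraries given STB for both chains.

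Vsig4, a receptor of tissue macrophages for complement fragments, had 2.26, 3.22 and 3.25 CPM after cisplatin plus STB, against 4.00, 6.01, 5.996 and 1.77 CPM after cisplatin, and a log2 fold change of -0.61 ± 0.39 (SE, adjusted p = 0.692, edgeR). Without cisplatin library 4, the 3 chains, Vsig4 and Cd14 all had an unadjusted p under 0.05 in edgeR on the lower side, as 4.63% of all genes did, and C1qa stood at -1.14. Without cisplatin library 2 none of the C1q chains was under that p, and C1qa stood at -0.54. Likewise no C1q chain was under that p without cisplatin library 3 or without cisplatin plus STB library 1 or 3. Without cisplatin plus STB library 2, all 3 chains and Cd68 were under it on the lower side, as 3.32% of all genes were. C1qb then stood at -1.66.

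Ptprc, the gene of CD45 on nucleated blood cells, had a positive value. It had 6.46, 10.5 and 5.12 CPM after cisplatin plus STB, against 5.62, 4.85, 4.51 and 2.07 CPM after cisplatin. Cisplatin plus STB libraries 1 and 2 were above all cisplatin libraries, and library 3 was below cisplatin library 1. The log2 fold change of Ptprc was 0.79 ± 0.34 (SE, 95% interval 0.05 to 1.53, adjusted p = 0.530, edgeR), and 0.44 without cisplatin plus STB library 2. Without that library, or without cisplatin library 3 or 4, its unadjusted p was not under 0.05 in edgeR. Hpgds, the prostaglandin D synthase of some resident macrophages and of mast cells, had 1.16, 2.17 and 1.08 CPM after cisplatin plus STB, against 1.12, 0.323, 1.37 and 0.305 CPM after cisplatin, a log2 fold change of 0.91 ± 0.55 (SE, adjusted p = 0.668, edgeR) at a level of few reads.

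Lyve1 averaged 4.42 ± 0.965 CPM after cisplatin plus STB (SD, n = 3) and 6.40 ± 1.86 CPM after cisplatin (SD, n = 4), a log2 fold change of -0.54 ± 0.30 (SE, adjusted p = 0.643, edgeR). Cd14 had 4.78, 4.97 and 3.73 CPM after cisplatin plus STB, and its log2 fold change against cisplatin was -0.59 ± 0.38 (SE, adjusted p = 0.692, edgeR), or -0.07 without cisplatin library 2. Mrc1 had 5.49, 5.76 and 4.94 CPM after cisplatin plus STB, against 5.68, 5.37, 14.3 and 4.51 CPM after cisplatin, and a log2 fold change of -0.47 ± 0.37 (SE, adjusted p = 0.758, edgeR), or 0.04 without cisplatin library 3. For Cd14 and Mrc1 the negative values thus rested on a single high cisplatin library each.

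Csf1r had 23.5, 50.2 and 18.6 CPM after cisplatin plus STB, and its log2 fold change against cisplatin was 0.02 ± 0.34 (SE, 95% interval -0.73 to 0.76, adjusted p = 0.995, edgeR). Cd74 had 130, 229 and 115 CPM after cisplatin plus STB, and its log2 fold change was 0.12 ± 0.37 (SE, adjusted p = 0.947, edgeR). For both genes cisplatin plus STB library 2 was far above the other libraries of its group, and without it the values were -0.53 for Csf1r and -0.25 for Cd74.

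**Figure D3:**
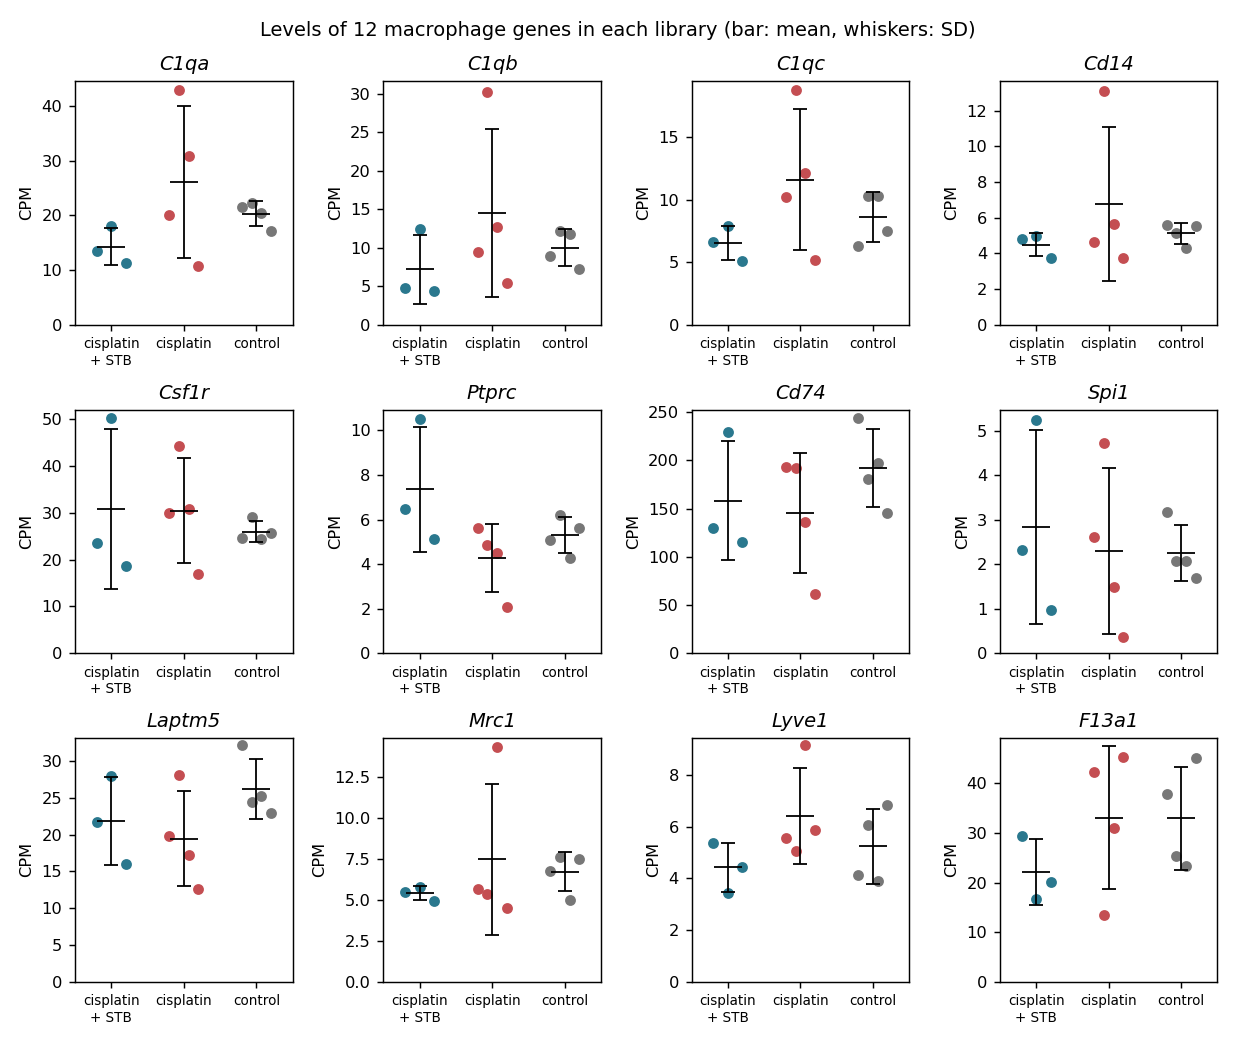
CPM of 12 macrophage genes in each library (points) for cisplatin plus STB (left), cisplatin (middle) and control (right), with bars at the mean and whiskers of 1 SD (n = 3, 4 and 4). Cisplatin libraries range from 10.8 to 42.9 CPM for C1qa and enclose both other groups.

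Cisplatin plus STB against control compares the combined treatment with untreated cochleae. None of the 27 members passed in edgeR, where 0% of all genes were called in either direction, and DESeq2 also called 0. At an unadjusted p under 0.05, 0 members were found, against 0.397% of all genes higher and 0.676% lower. The members split into 9 positive and 18 negative fold changes, with a median log2 fold change of -0.10 beside -0.0032 over all genes, and none had libraries that did not overlap (1.02% of all genes higher, 1.39% lower). Without cisplatin plus STB library 2, 24 of 27 were negative with a median of -0.35. Without library 1 of that group 13 were negative, and without library 3 it was 11.

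F13a1, the coagulation factor XIII subunit made by resident macrophages and platelets, had the smallest p here. F13a1 had 29.5, 16.8 and 20.2 CPM after cisplatin plus STB, against 37.9, 25.4, 23.3 and 45.1 CPM in control cochleae, and a log2 fold change of -0.58 ± 0.38 (SE, adjusted p = 1.000, edgeR). Libraries 2 and 3 with STB were below all control libraries and library 1 was among them. In cisplatin cochleae F13a1 ran from 13.5 to 45.3 CPM, and library 2, where the C1q chains were highest, held the lowest F13a1 level of all 11 libraries.

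The C1q chains had negative values against control as well, with log2 fold changes of -0.50 ± 0.36 for C1qa, -0.47 ± 0.54 for C1qb and -0.40 ± 0.36 for C1qc (SE, adjusted p = 1.000 each, edgeR). C1qa libraries 1 and 3 with STB were below all control libraries, and library 2 was between control library 4 and the others. The values were 0.48 ± 0.34 for Ptprc, -0.26 ± 0.26 for Laptm5, -0.32 ± 0.37 for Mrc1 and 0.45 ± 0.54 for Hpgds (SE, adjusted p = 1.000 each, edgeR). Csf1r had a log2 fold change of 0.24 ± 0.34 and Cd74 of -0.28 ± 0.37 (SE, adjusted p = 1.000 each, edgeR), and Csf1r was at -0.31 without cisplatin plus STB library 2.

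**Figure D4:**
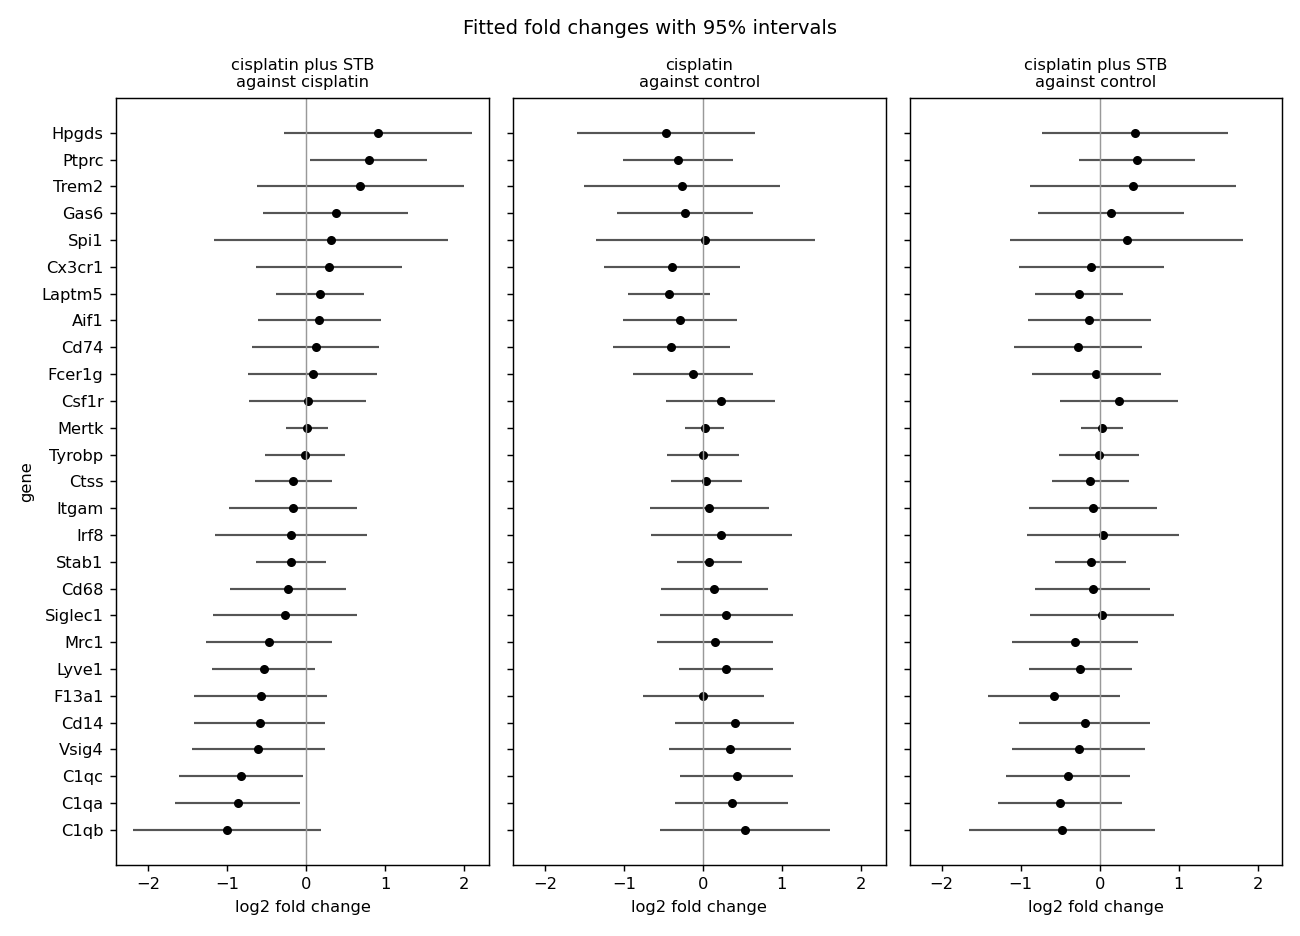
Fitted log2 fold changes (points) with 95% intervals (lines) of 27 macrophage genes in the 3 comparisons, ordered by the value of cisplatin plus STB against cisplatin. The intervals of C1qa, C1qc and Ptprc leave out 0 in that comparison, and all 27 intervals include 0 in cisplatin against control and in cisplatin plus STB against control.

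How much the module could have moved unseen differed between genes. The narrowest interval was that of Mertk, the receptor through which macrophages bind Gas6 on dying cells. Mertk had 61.4, 56.0 and 60.8 CPM after cisplatin plus STB, 67.7, 54.7, 54.0 and 59.8 CPM after cisplatin and 57.4, 52.0, 56.7 and 66.1 CPM in control cochleae. Its 95% interval for cisplatin against control ran from -0.22 to 0.27 on the log2 scale. For cisplatin plus STB against cisplatin it ran from -0.26 to 0.28. In cisplatin library 4 Mertk had a log2 difference to the control mean of 0.05, while the median of the members was -0.80. Its narrow interval therefore holds for Mertk and not for the module. The widest was that of Spi1, the gene of the macrophage transcription factor PU.1, which had 2.33, 5.23 and 0.964 CPM after cisplatin plus STB, 2.62, 4.72, 1.48 and 0.366 CPM after cisplatin and 3.17, 2.06, 2.08 and 1.69 CPM in control cochleae. Its interval for cisplatin against control ran from -1.36 to 1.42, so changes of Spi1 within that range remain compatible with these libraries. Of the 27 intervals, 12 in that comparison and 11 in cisplatin plus STB against cisplatin stayed within 1 log2 unit on either side.

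The remaining members are given by their levels. Among general macrophage genes, Cd68, a lysosomal glycoprotein, ran from 2.78 to 6.45 CPM after cisplatin plus STB, 3.25 to 5.95 CPM after cisplatin and 3.66 to 4.75 CPM in control cochleae. Aif1, the calcium-binding protein IBA1, ran from 3.81 to 7.93 CPM after cisplatin plus STB, 2.56 to 6.80 CPM after cisplatin and 5.20 to 6.43 CPM in control cochleae. Ctss, a lysosomal protease of antigen processing, ran from 8.72 to 9.15 CPM after cisplatin plus STB, 7.62 to 12.9 CPM after cisplatin and 7.93 to 11.8 CPM in control cochleae. For Cd68 and Aif1 the treated libraries reached beyond the control range on both sides.

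Among perivascular genes, the scavenger receptor gene Stab1 ran from 26.8 to 50.04 CPM after cisplatin plus STB, 37.4 to 55.0 CPM after cisplatin and 36.4 to 50.9 CPM in control cochleae. Siglec1 ran from 2.83 to 4.07 CPM after cisplatin plus STB, 1.89 to 7.31 CPM after cisplatin and 2.34 to 4.54 CPM in control cochleae. Among the adaptors, Tyrobp averaged 16.2 ± 3.84 CPM after cisplatin plus STB (SD, n = 3), 16.3 ± 3.15 CPM after cisplatin (SD, n = 4) and 16.3 ± 4.07 CPM in control cochleae (SD, n = 4). Its partner receptor gene Trem2 ran from 0.602 to 2.59 CPM after cisplatin plus STB and from 0.244 to 1.81 CPM after cisplatin. In control cochleae Trem2 ran from 0.820 to 1.45 CPM. Over all 11 libraries the range was 10.6-fold for Trem2 and 1.87-fold for Tyrobp. The low end of Trem2 was 4 counts in cisplatin library 4, a level of few reads. Fcer1g, the Fc receptor gamma chain, ran from 3.97 to 6.82 CPM after cisplatin plus STB, 2.07 to 7.70 CPM after cisplatin and 4.70 to 6.13 CPM in control cochleae.

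Itgam, the integrin alpha chain CD11b, ran from 2.83 to 6.82 CPM after cisplatin plus STB, 2.99 to 7.12 CPM after cisplatin and 3.19 to 5.37 CPM in control cochleae. Irf8, a transcription factor of monocytes, ran from 2.11 to 4.33 CPM after cisplatin plus STB, 1.10 to 4.69 CPM after cisplatin and 2.15 to 3.50 CPM in control cochleae. Gas6 had 55.7, 109 and 36.5 CPM after cisplatin plus STB, 50.1, 34.8, 82.8 and 40.0 CPM after cisplatin and 58.2, 91.2, 56.9 and 36.2 CPM in control cochleae, a spread as wide within control as between groups.

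Genes around the module were read from further lists, and none held a gene called in edgeR in any of the 3 comparisons. Of all genes tested, 4.43% were higher and 5.28% lower at an unadjusted p under 0.05 in cisplatin against control, and 4.45% higher and 4.58% lower in cisplatin plus STB against cisplatin. Groups that did not overlap were found for 2.8% of all genes higher and 3.26% lower in cisplatin against control, and for 3.81% higher and 3.73% lower in cisplatin plus STB against cisplatin. Among 7 tested growth factor and chemokine genes, 2 had an unadjusted p under 0.05 on the higher side in cisplatin against control. Il34, a ligand of CSF1R, had 37.3, 60.02, 44.8 and 43.1 CPM after cisplatin, against 36.1, 29.0, 29.6 and 31.1 CPM in control cochleae, and the groups did not overlap. Its log2 fold change was 0.56 ± 0.17 (SE, adjusted p = 0.448, edgeR). Il34 had 27.8, 35.8 and 22.6 CPM after cisplatin plus STB, all below every cisplatin library, a log2 fold change against cisplatin of -0.69 ± 0.19 (SE, adjusted p = 0.359, edgeR). Ccl2, a chemokine that draws monocytes, had 1.94, 79.3, 3.62 and 2.26 CPM after cisplatin, against 5.03, 1.06, 0.9753 and 2.90 CPM in control cochleae. Its log2 fold change was 3.13 ± 1.29 (SE, adjusted p = 0.508, edgeR), and 0.07 without cisplatin library 2, the library with the highest C1q and Cd14 levels.

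Of 17 tested complement genes other than the C1q chains, 1 was higher and 1 lower at an unadjusted p under 0.05 in cisplatin against control, and 3 were lower in cisplatin plus STB against cisplatin. C2, which is cleaved downstream of C1q, averaged 8.11 ± 3.04 CPM after cisplatin and 15.6 ± 3.15 CPM in control cochleae (SD, n = 4 each), a log2 fold change of -0.94 ± 0.28 (SE, adjusted p = 0.440, edgeR). Cfp, properdin of the alternative pathway, averaged 34.1 ± 11.2 CPM after cisplatin and 20.9 ± 2.26 CPM in control cochleae (SD, n = 4 each), with a log2 fold change of 0.71 ± 0.23 (SE, adjusted p = 0.448, edgeR). C1r, the protease that C1q activates, averaged 19.6 ± 5.75 CPM after cisplatin plus STB (SD, n = 3) and 33.7 ± 12.4 CPM after cisplatin (SD, n = 4), with a log2 fold change of -0.78 (adjusted p = 0.494, edgeR). The libraries did not overlap for C2 in cisplatin against control and for C1r in cisplatin plus STB against cisplatin.

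Of 36 further macrophage genes, 3 were higher and 2 lower at an unadjusted p under 0.05 in cisplatin against control. In cisplatin plus STB against cisplatin 2 were higher and 3 lower. In cisplatin plus STB against control 1 was lower, against 0.676% of all genes. Cd163, the haemoglobin scavenger receptor of macrophages, had 1.62, 2.01 and 1.32 CPM after cisplatin plus STB, 4.25, 11.7, 11.8 and 6.71 CPM after cisplatin and 2.34, 3.62, 2.47 and 3.72 CPM in control cochleae, with no overlap between any of the groups (over all genes, 1.39% did not overlap on the lower side in cisplatin plus STB against control). Its log2 fold change was 1.5 ± 0.34 for cisplatin against control (SE, adjusted p = 0.440, edgeR). For cisplatin plus STB it was -2.38 ± 0.39 against cisplatin (SE, adjusted p = 0.156, edgeR). Against control it was -0.88 ± 0.38 there (SE, adjusted p = 0.9999, edgeR). DESeq2 gave adjusted p-values of 0.0182 for cisplatin against control and 5.28e-06 for cisplatin plus STB against cisplatin. Over all genes DESeq2 called 31 in the former comparison and 103 in the latter, more than edgeR did in either. Wdfy4 averaged 3.65 ± 1.06 CPM after cisplatin plus STB (SD, n = 3) and 1.63 ± 0.28 CPM after cisplatin (SD, n = 4), a log2 fold change of 1.17 (adjusted p = 0.423, edgeR).

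Of 8 genes of class II regulation and antigen processing, 1 was higher and 1 lower at an unadjusted p under 0.05 in either comparison that involves cisplatin alone. Ifi30, a thiol reductase of antigen processing, averaged 12.9 ± 2.34 CPM after cisplatin plus STB (SD, n = 3) and 20.8 ± 4.38 CPM after cisplatin (SD, n = 4), with a log2 fold change of -0.69 (adjusted p = 0.394, edgeR), and 15.4 ± 2.52 CPM in control cochleae (SD, n = 4). Rfxank, a subunit of the factor that drives class II promoters, had a log2 fold change of 0.49 for cisplatin plus STB against cisplatin (adjusted p = 0.439, edgeR). None of 4 phagocyte oxidase genes had an unadjusted p under 0.05 in edgeR in any comparison. The same held for all 14 genes of immune cell receptors and signalling proteins related to Tyrobp and Fcer1g. Of 13 further efferocytosis genes, 1 was higher and 1 lower at an unadjusted p under 0.05 in cisplatin against control, and 1 was higher in cisplatin plus STB against cisplatin. Pros1, a ligand of MERTK, had a log2 fold change of 0.39 in cisplatin against control (adjusted p = 0.512, edgeR). Stab2, a scavenger receptor that is also in the endothelial list, had 13, 12 and 15 counts after cisplatin plus STB, 4, 2, 3 and 3 counts after cisplatin and 2, 21, 7 and 12 counts in control cochleae. Its log2 fold change was -1.76 ± 0.62 for cisplatin against control (SE, adjusted p = 0.462, edgeR) and 2.05 ± 0.65 for cisplatin plus STB against cisplatin (SE, adjusted p = 0.404, edgeR), at a level of few reads.

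Genes of other cells that a cochlea in its bone can hold were read the same way. The summed level of 10 neutrophil genes was 7.23 to 17.6 CPM after cisplatin plus STB, 5.37 to 18.3 CPM after cisplatin and 7.16 to 13.8 CPM in control cochleae, and 7 of the 10 averaged under 1 CPM. The sum of 13 osteoclast genes, cells of the macrophage lineage in bone, was 239 to 279 CPM after cisplatin plus STB, 244.5 to 286 CPM after cisplatin and 254 to 286 CPM in control cochleae. Of 13 B cell genes 12 averaged under 1 CPM, as did 7 of 10 T and NK cell genes and 9 of 14 erythroid genes, with Ahsp at 0. At an unadjusted p under 0.05 in edgeR, 4.43% of all genes were higher and 5.28% lower in cisplatin against control. In cisplatin plus STB against cisplatin 4.45% were higher and 4.58% lower. Of 10 tested osteoclast genes, 1 was lower in each of these comparisons. Of 5 tested neutrophil, 4 B cell, 4 T and NK cell and 7 erythroid genes, 0 passed in any comparison. Of 5 tested dendritic cell genes 1 was higher, and of 5 platelet genes 1 lower, in cisplatin against control. Of 3 tested mast cell genes 1 was higher in cisplatin plus STB against cisplatin. Of 15 endothelial genes, 1 was lower in cisplatin against control, and 1 was higher and 3 lower in cisplatin plus STB against cisplatin. The part of these cells in the macrophage levels was not tested.

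**Figure D5:**
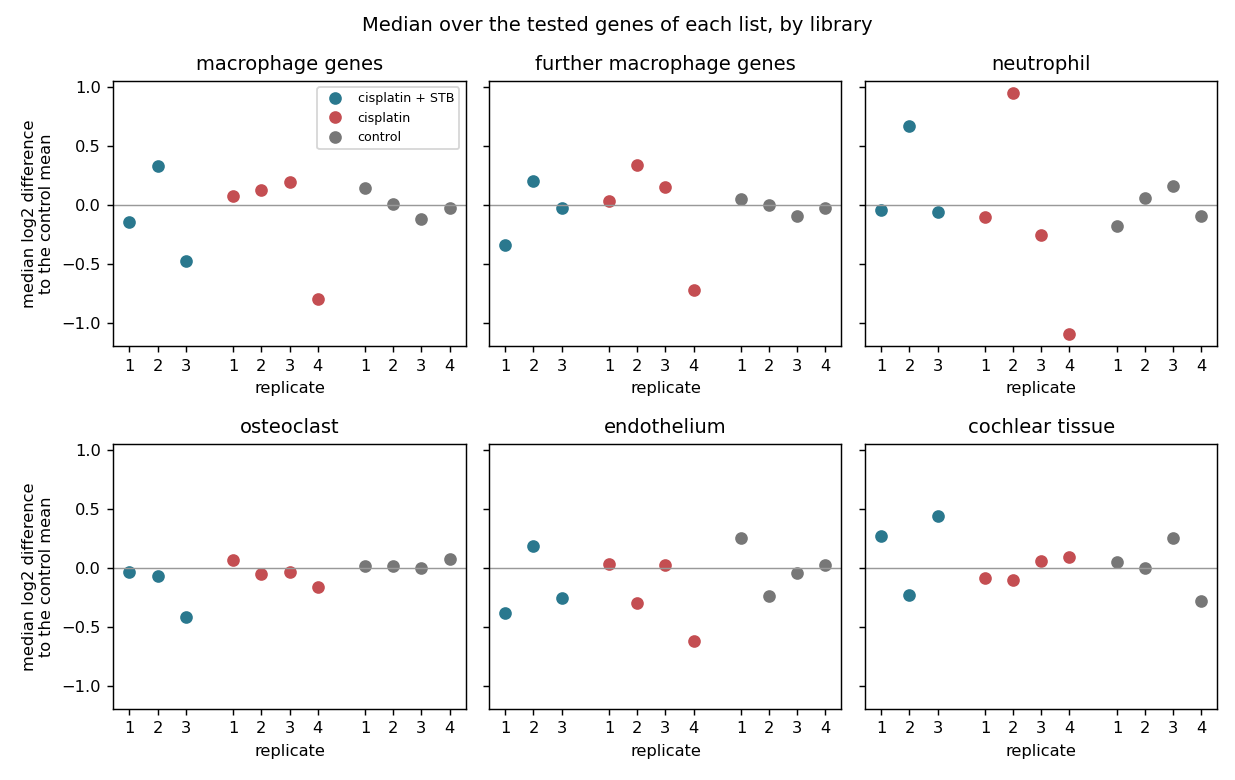
Median log2 difference to the control mean over the tested genes of 6 lists, for each library by replicate number (x axis) of cisplatin plus STB (blue), cisplatin (red) and control (grey). Cisplatin library 4 is lowest for the macrophage genes (-0.80), the further macrophage genes (-0.72), the neutrophil genes (-1.09) and the endothelial genes (-0.62), and not for the osteoclast or cochlear genes.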

How the data were processed

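RNA-seq of cochlea was deposited for 11 libraries. Per the labels' protocols, strand-keeping libraries for paired-end sequencing came from column-purified RNA after oligo(dT) selection or removal of ribosomal RNA, without saying which library had which. The submitters' processing notes name HTSeq 0.6.1, HISAT2 2.2.1 and cutadapt 1.9.1 and leave their roles open. Per the file headers, the deposited table holds raw counts and FPKM values for each library, with gene positions and exonic lengths. The deposited counts are raw, whole numbers. FPKM, as computed by the authors, entered no test and serves to compare levels between genes. No genome build is named. Of the symbols, 21478 were found in the RefSeq table of mCavPor4.1 with the same start and end, 29 of 29 members among them. Only a LOC symbol was given for 5273 genes.

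Counts were tested with edgeR 4.0.16 in R 4.3.3 (filterByExpr by group, which removed 6097 genes, TMM, robust glmQLFit and glmQLFTest over all 11 libraries, Benjamini-Hochberg over 15384 genes, call at an adjusted p under 0.05). The biological coefficient of variation common to all genes was 0.276. CPM values use TMM library sizes, SE values come from the quasi-likelihood F statistic, and intervals are 95% intervals. The code was tested on simulated data. Alternatives were RLE and upper-quartile scaling, no filter, DESeq2 1.42.0, a fit of the 2 groups compared, a replicate block and leaving out each library. Fold changes are printed for the 8 members with the smallest p in each comparison and for Csf1r, C1qa, Mrc1, Ptprc and Cd74 in all, and up to 2 genes are named from each other list, apart from a few genes that are not reported here. The members and lists were chosen with earlier results of these data known, so no test was made on a list.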

Additional observations from a re-analysis of the deposited data

Results flagged for a closer look

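Values of a gene in a group of 4 libraries were looked at for a single library far from the others, as the gap to its nearest neighbour over the range of the group. Of 54 such groups, 2 stood out (3.7%), while chance gives about 1 in 20. Mrc1 had 14.31 CPM in cisplatin library 3, with the other cisplatin libraries between 4.51 and 5.68 CPM and a ratio of 0.881. Fcer1g had 6.127 CPM in control library 1, with the other control libraries between 4.70 and 4.88 CPM and a ratio of 0.876.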

How the results depend on the processing

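No member was called in any comparison under any of the 17 alternatives, DESeq2 and the replicate block included. The medians of the members moved by less than 0.358 log2 units, the SD between libraries. That SD is wider than the medians themselves, so it could hardly have flagged a move. With a library left out, the median ran from -0.0669 to 0.181 in cisplatin against control. It ran from -0.383 to 0.0226 in cisplatin plus STB against cisplatin and from -0.345 to 0.0669 in cisplatin plus STB against control. Over all genes, cisplatin against control had 0 genes called, 1 with no filter, 31 with DESeq2 and 0 to 7 with a library left out (7 without cisplatin library 1). Cisplatin plus STB against cisplatin had 3 called, 103 with DESeq2, 0 with only the 2 groups compared, 0 with the replicate block, and 0 to 23 with a library left out (23 without cisplatin plus STB library 3, 15 without cisplatin library 1). Cisplatin plus STB against control had 0 called, and 0 to 2 with a library left out (2 without cisplatin plus STB library 3). The cause was not tested. Members with an unadjusted p under 0.05 in edgeR numbered 1 instead of 0 in cisplatin against control with the replicate block. In cisplatin plus STB against cisplatin they numbered 0 instead of 3 with only the 2 groups compared. There they numbered 1 to 5 with a library left out, where 2.64% to 6.34% of all genes were higher and 2.51% to 6.49% lower. In cisplatin plus STB against control they numbered 1 (only the 2 groups compared) or 2 (replicate block) instead of 0. In cisplatin against control they ran from 0 to 3 with a library left out. Of all genes, 2.99% to 6.62% were then higher and 3.34% to 7.73% lower. With the replicate block or only the 2 groups compared, the share over all genes was not computed. The counts under those settings are therefore not read as a result.

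The replicate numbers were not found to pair the libraries throughout. Same-numbered libraries correlated over 0.1 in 1 of 4 pairs for cisplatin against control and in 1 of 3 pairs in each other comparison. In cisplatin plus STB against control, 2 of 3 libraries correlated best with the control of their own number, the highest at 0.358. In each other comparison 1 library did so. The replicate block was kept as an alternative only. Under it Csf1r stood at -0.15 and Cd74 at -0.0438 in cisplatin plus STB against cisplatin, and Csf1r at -0.00371 in cisplatin plus STB against control. With no filter Csf1r stood at -0.00238 in cisplatin plus STB against cisplatin. With each library left out in turn, log2 fold changes took both signs for 15 of 27 members in cisplatin against control, 15 in cisplatin plus STB against cisplatin and 14 in cisplatin plus STB against control. Among those whose fold change is printed above, they ran, for cisplatin against control, from -0.00432 to 0.43 for Csf1r, -0.11 to 0.81 for C1qb, -0.13 to 0.61 for Cd14 and -0.37 to 0.34 for Mrc1. For cisplatin plus STB against cisplatin they ran from -0.53 to 0.28 for Csf1r, -0.66 to 0.0439 for Mrc1 and -0.25 to 0.30 for Cd74, and for cisplatin plus STB against control from -0.31 to 0.50 for Csf1r. Over the other results, 863 of 881 values of named genes kept their direction and side of the threshold, and 3 were called only under an alternative, all of them values of Cd163. Counts under about 1 CPM, as for Trem2, Hpgds and Spi1 in the lowest libraries, limit what could be seen.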

Other observations

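Within a library, the level of C1q relative to Csf1r sets the RNA of the C1q chains beside that of a general macrophage gene. This ratio was chosen after the values were seen and is given as a description, with no test. C1qa over Csf1r was 0.579, 0.358 and 0.612 after cisplatin plus STB, 0.670, 0.971, 1.01 and 0.641 after cisplatin and 0.874, 0.762, 0.835 and 0.667 in control cochleae. C1qb over Csf1r was 0.204, 0.247 and 0.236 after cisplatin plus STB, 0.317, 0.684, 0.414 and 0.326 after cisplatin and 0.361, 0.418, 0.484 and 0.280 in control cochleae. For both chains the ratio in all libraries with STB was below that in every cisplatin library and every control library. This includes cisplatin library 4, which was low for most of the module. In cisplatin plus STB library 2 the divisor Csf1r was at 50.2 CPM, the highest of all 11 libraries. There C1qa had 18.0 CPM, within the control range, and C1qb 12.4 CPM, above every control library. C1qc over Csf1r was 0.281, 0.157 and 0.275 after cisplatin plus STB, 0.342, 0.425, 0.395 and 0.308 after cisplatin and 0.258, 0.353, 0.423 and 0.291 in control cochleae, and was below every cisplatin library only. Of the 26 other tested members, these 3 chains were the ones whose ratio to Csf1r was lower in every library with STB than in every cisplatin library, and Ptprc was the one with a higher ratio. Over all genes tested that share was 0.423% lower and 0.780% higher. Before division by Csf1r it was 3.73% lower and 3.81% higher, with no member among them. Csf1r ran from 16.8 to 50.2 CPM over the treated libraries, which spreads the ratios of genes that do not follow it. The share after division is therefore not an even measure for members that may follow Csf1r. Against control, the members with a lower ratio in every library with STB were C1qa, C1qb and Aif1, and none had a higher one. Over all genes the shares were 0.592% lower and 0.078% higher, and 1.39% and 1.02% before division. A ratio within a library shows unequal levels, not which of the genes differed.

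Rows with LOC symbols that the deposited table describes as products missing from the module by symbol were looked at after their values were seen. Integrin beta-2, the partner of Itgam, ran from 4.28 to 12.05 CPM after cisplatin plus STB, 3.66 to 10.7 CPM after cisplatin and 6.76 to 9.57 CPM in control cochleae. The cytochrome b-245 heavy chain of the phagocyte oxidase ran from 3.29 to 5.76 CPM after cisplatin plus STB, 1.46 to 5.56 CPM after cisplatin and 2.86 to 5.71 CPM in control cochleae. The row described as T-cell immunoglobulin and mucin domain-containing protein 4, the product of Timd4, ran from 0.542 to 1.69 CPM after cisplatin plus STB, 0.841 to 2.02 CPM after cisplatin and 1.04 to 1.87 CPM in control cochleae. In all 3 groups their ranges overlapped. Class II partner genes of Cd74 were also present as LOC symbols, in 22 rows, of which 7 held reads in all 11 libraries, 10 were at 0 in some and 5 at 0 in all. A DM beta row held 136, 225 and 105 counts after cisplatin plus STB, 159, 82, 129 and 54 counts after cisplatin and 181, 109, 124 and 127 counts in control cochleae. A DQ alpha-like row at 0 in 4 libraries held 114, 0 and 69 counts after cisplatin plus STB, 480, 331, 123 and 0 counts after cisplatin and 201, 0, 128 and 0 counts in control cochleae. Such rows have near copies among which reads can be split, so their levels are uncertain.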
